A study of Mus musculus with 50 samples.

Results

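The genes described here are 33 members of the pathways that make cholesterol and fatty acids, read from bulk RNA sequencing of mouse sarcomas. They were picked by name from the 37469 gene identifiers of the count table, and comprise 18 enzymes of sterol synthesis, 6 regulators and carriers of sterols, and 9 genes of fatty acid synthesis. All 33 were in the table once and passed the filter on low counts, as did 19327 genes in all. They were chosen because several of them were already known to be low in irradiated tumors that had received the isotype control antibody. Values from isotype tumors are therefore given below as descriptions with no test, and tests compare only the 24 tumors that received anti-PD-1. Earlier results of these data were known when the members were chosen, so these tests may not be independent of the choice. The isotype tumors still enter the fit of all 48 tumors and so help to set its estimate of the spread.

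Both tumor models were sarcomas of the gastrocnemius muscle in 129/SvJae mice, and every tumor had lost, or descended from a tumor that had lost, Trp53. Primary p53/MCA sarcomas were started in p53FL/FL mice aged 6 to 10 weeks by injecting an adenovirus that carries Cre recombinase, followed by 300 µg of the carcinogen 3-methylcholanthrene (MCA), so that each primary tumor arose on its own. Transplant tumors grew from 50000 cells of a single line, 402230, derived from 1 untreated primary tumor and injected into the same muscle of syngeneic mice, so their replicates are separate mice but not separate tumors of origin. Mice received 200 µg of an antibody that blocks PD-1 (anti-PD-1), a brake on T cells, or an isotype control and then 0 or 20 Gy of radiation to the tumor, and tumors were harvested 3 days later. The 4 treatments gave groups of 8 primary tumors and of 4 transplants each, 48 tumors in all. A library labelled as the parental primary tumor of line 402230 and a library labelled as the cell line had no replicate.

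Cells make cholesterol from acetyl-CoA by way of mevalonate, isoprenoid diphosphates, squalene and lanosterol, and make fatty acids from the same acetyl-CoA through malonyl-CoA. The transcription factors encoded by Srebf2 and Srebf1 drive the genes of both pathways: Scap escorts their precursors from the endoplasmic reticulum to be cut, and the proteins made by Insig1 and Insig2 hold Scap back when sterols are plentiful. Oxysterols, which accumulate when cholesterol is in excess, activate the LXR receptors made by Nr1h3 and Nr1h2, and these raise genes that export cholesterol, such as Abcg1 and Abca1. Dividing tumor cells need both products for membranes.

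Libraries held between 31810461 and 54008259 counted reads in the 48 tumors, and the 10 most counted genes took 5.0% to 15.2% of them. Trp53 itself was counted at 4.34 to 5.92 log2 CPM (a gene's counts scaled to the size of its library) in every tumor, and as bulk tumors hold host cells and no tumor with an intact gene was sequenced, this level does not check the deletion. Markers of skeletal muscle varied most between tumors, with a mean over 9 genes from 0.27 to 12.55 log2 CPM among the irradiated primary tumors with anti-PD-1 alone. One library stood apart from its group, on the members (20 of the 33 were highest in it) and on other genes alike. Replicate 5 of the primary tumors given anti-PD-1 and 20 Gy had 78.8 CPM of Cdkn1a, a cell cycle inhibitor that rises after radiation. The other 7 tumors of its group had 149 to 469 CPM, and the unirradiated primary tumors given anti-PD-1 had 32.1 to 55.8. Its mean over 8 macrophage markers was 5.94 log2 CPM, against 7.34 to 8.65 in the other 7. Leaving out replicate 5 was decided after the data were seen, and the main counts are given with and without it. In bulk tissue, fewer cells of a type and less RNA per cell cannot be told apart.

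The labels of the pair of 402230 libraries went against their marker genes. The library labelled as the parental tumor had 0.109 CPM each of Ptprc, the pan-leukocyte marker, and Pecam1, an endothelial marker, and its 8 macrophage markers summed to 3.56 CPM, with 2 of the 8 at 0. The library labelled as the cell line had 77.9 CPM of Ptprc and 99.2 CPM of Pecam1, and its macrophage markers summed to 982 CPM, near the 1069 to 2795 CPM of the 24 unirradiated tumors. They are therefore called by their labels only.

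Promoter sequences of some members are shown first, since the sterol genes are textbook targets of a common set of factors at their promoters. RefSeq windows of the GRCm38.p6 build, which reach from 250 bases before to 50 bases after each annotated start, were held for 26 of the 33 members in 34 windows. Capitals in the lines below mark the letters TCACNCCAC, the core of the sterol regulatory element bound by the Srebf2 product, the box CCAAT bound by NF-Y, and the box GGGCGG bound by Sp1, on either strand, so ATTGG and CCGCCC are the same boxes read from the other side. Each line gives the 250 bases before the RefSeq start, 5′ to 3′ along the gene. Hmgcs1 is shown as the only member with a match to the sterol element among the 26 that had a window. Idi1, Cyp51, Insig1 and Srebf2 are shown as members whose RNA was low after radiation, and Ebp as a sterol enzyme whose RNA was not.
Hmgcs1 (chr13:119690101-119690350, + strand): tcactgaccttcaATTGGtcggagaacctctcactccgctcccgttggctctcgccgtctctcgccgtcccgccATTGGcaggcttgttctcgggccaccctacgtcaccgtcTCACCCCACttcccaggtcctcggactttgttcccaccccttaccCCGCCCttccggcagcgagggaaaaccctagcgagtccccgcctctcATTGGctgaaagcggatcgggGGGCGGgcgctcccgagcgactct
Idi1 (chr13:8885356-8885605, + strand): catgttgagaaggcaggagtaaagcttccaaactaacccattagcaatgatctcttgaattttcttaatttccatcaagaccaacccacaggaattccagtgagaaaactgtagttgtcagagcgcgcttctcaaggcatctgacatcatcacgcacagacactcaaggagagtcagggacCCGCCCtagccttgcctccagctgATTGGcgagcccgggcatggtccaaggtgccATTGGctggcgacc
Cyp51 (chr5:4104698-4104947, - strand): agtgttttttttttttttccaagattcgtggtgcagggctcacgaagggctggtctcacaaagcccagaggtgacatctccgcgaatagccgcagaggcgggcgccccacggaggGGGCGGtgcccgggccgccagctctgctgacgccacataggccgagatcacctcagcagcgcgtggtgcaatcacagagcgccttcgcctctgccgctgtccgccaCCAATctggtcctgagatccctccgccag
Insig1 (chr5:28071162-28071411, + strand): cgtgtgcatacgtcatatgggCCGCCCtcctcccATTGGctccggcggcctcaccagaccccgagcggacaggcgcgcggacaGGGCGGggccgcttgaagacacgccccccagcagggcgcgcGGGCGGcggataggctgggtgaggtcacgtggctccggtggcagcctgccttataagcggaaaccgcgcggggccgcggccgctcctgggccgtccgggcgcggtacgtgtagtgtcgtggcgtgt
Srebf2 (chr15:82147019-82147268, + strand): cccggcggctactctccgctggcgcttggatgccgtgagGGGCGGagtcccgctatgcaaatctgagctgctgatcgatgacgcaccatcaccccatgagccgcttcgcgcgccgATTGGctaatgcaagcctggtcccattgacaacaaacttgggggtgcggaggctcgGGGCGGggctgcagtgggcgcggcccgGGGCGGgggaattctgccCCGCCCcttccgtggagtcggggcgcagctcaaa
Ebp (chrX:8193513-8193762, - strand): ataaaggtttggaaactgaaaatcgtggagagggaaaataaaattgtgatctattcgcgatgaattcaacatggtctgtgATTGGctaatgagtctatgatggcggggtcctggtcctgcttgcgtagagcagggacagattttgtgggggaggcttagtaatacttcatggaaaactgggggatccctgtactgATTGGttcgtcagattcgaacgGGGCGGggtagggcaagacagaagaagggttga

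The core element TCACNCCAC was found in 1 of the 34 member windows and in 1.24% of all 32851 windows, and a longer form of the element, with 10 fixed letters, in 0 of 34 and 0.0913% of all. The CCAAT box was in 22 of 34 member windows against 37.4% of all, and in 14 of the 18 windows of sterol enzymes, while 3 of 6 windows of fatty acid genes held it. The GGGCGG box was in 26 of 34 member windows against 35.7% of all, in 15 of 18 for the sterol enzymes and 3 of 6 for the fatty acid genes. The NF-Y and Sp1 boxes can share letters where they adjoin, and windows of 1 gene with several starts overlap. The Ebp window held both boxes as well, so the boxes did not separate the genes shown. A match is letters in a window and not a bound site.

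In unirradiated tumors the most abundant members were fatty acid genes, though others of that list ranked near the bottom. Members were ranked per kilobase of exon, with the length taken over all annotated exons of each gene. That length can exceed a single transcript and so understate a gene, and the ranks are therefore approximate. It was 10163 bases for Acss2 and 17074 for Acaca. Scd2, a stearoyl-CoA desaturase that puts the double bond into saturated fatty acids, led all members. Its median was 87.6 CPM per kilobase (47.9 to 117.3) in the 8 primary tumors given anti-PD-1 and 61.9 (40.0 to 122.3) in the 4 transplants. Acly, which makes acetyl-CoA for both pathways from citrate, followed at 49.9 and 43.9, and Scd1 at 36.6 and 41.6. Srebf2 was the highest regulator at 24.8 and 22.6 CPM per kilobase, and Hmgcs1, which makes HMG-CoA, was the highest sterol enzyme in the primary tumors at 17.8. In transplants Ebp, a sterol isomerase late in the pathway, was the highest sterol enzyme at 17.01 against 13.8 for Hmgcs1, and the ranges of these neighbours overlapped. Among 33 ranks in the primary tumors, Fads2, Elovl6, Acaca and Acss2 held ranks 22, 24, 29 and 32. Fdps, which joins isoprenoid units into farnesyl diphosphate, ranked last at 0.494 and 0.285, and since near-identical pseudogene copies exist its reads may have been split or discarded, so its level is uncertain. The same holds in part for Idi1, Acat2 and the Scd pair, which have close relatives.

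The tested question was whether radiation changed these genes in tumors that also received anti-PD-1. In primary tumors 20 of the 33 members fell and none rose, with 8 tumors in each arm, where 3.25% of all genes tested fell and 7.92% rose by the same test (edgeR's quasi-likelihood test, adjusted p under 0.05 over 19327 genes). The median log2 fold change was -0.77 over the 33 members and 0.02 over all genes. Among the lists, 13 of 18 sterol enzymes, 3 of 6 regulators and carriers and 4 of 9 fatty acid genes fell. Without replicate 5 of the irradiated group, 22 of 33 fell, against 4.56% of all genes. With the spread taken from these 2 groups alone 16 fell, against 1.12% of all genes, and with the 24 anti-PD-1 libraries alone 18 fell, against 1.96%.

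**Figure D1:**
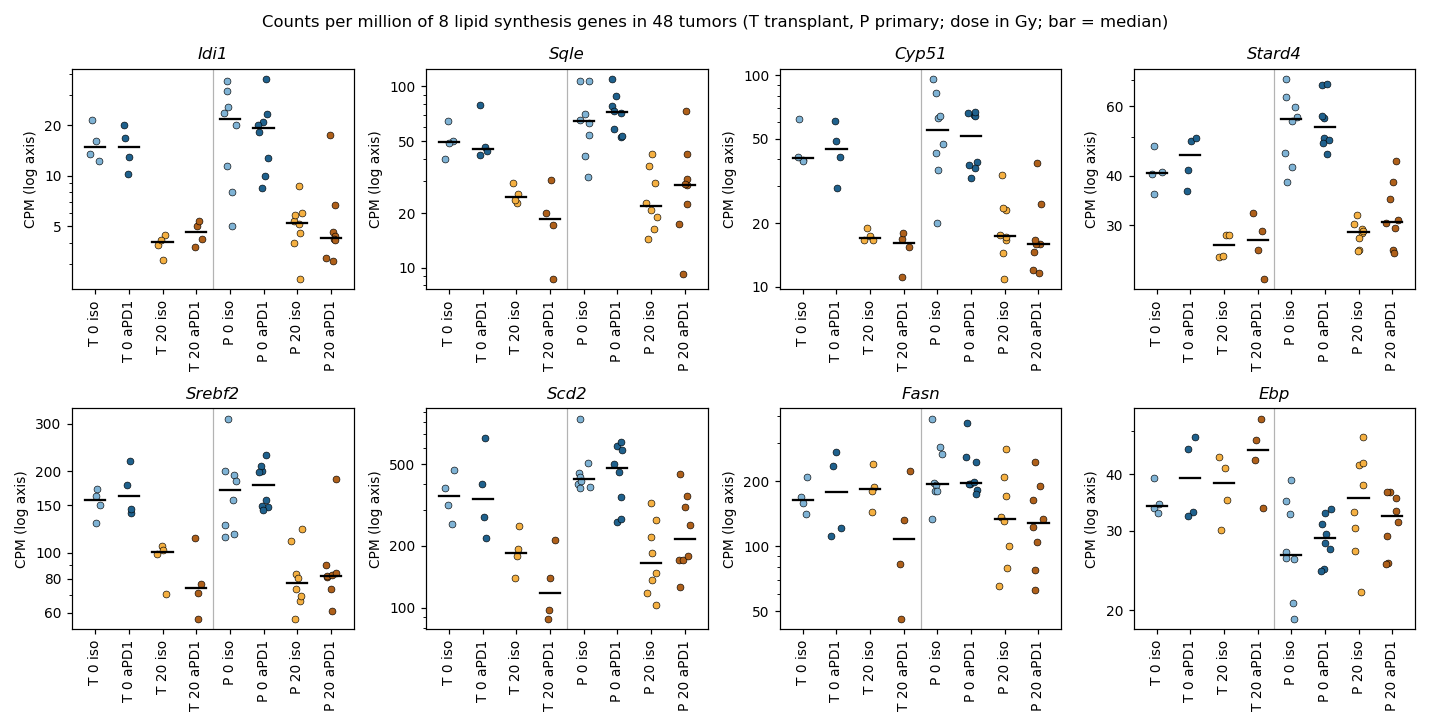
CPM (log axis) of 8 members in each of 48 tumors, by model (T transplant, P primary), dose in Gy and antibody (iso, isotype; aPD1, anti-PD-1); each point is a tumor and each bar a group median. Idi1 medians lie between 14.8 and 21.8 CPM without radiation and between 4.02 and 5.28 with it, while Ebp medians are not lower after radiation in any of the 4 pairs.

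The early, mevalonate end of the sterol pathway was lower after radiation. Idi1, which isomerises the isoprenoid building block (chromosome 13, 8885501 to 8892451, + strand), had 8.42, 19.1 and 37.8 CPM as lowest, median and highest of the 8 unirradiated primary tumors, and 3.11, 4.29 and 17.5 CPM in the irradiated. Of the 8 irradiated tumors, 7 lay below every unirradiated one, at up to 6.68 CPM, and the other was replicate 5. Its log2 fold change was -1.66 ± 0.34 (SE), to 0.317 times the unirradiated level (adjusted p = 0.00123, edgeR), and without replicate 5 it was -2.11 ± 0.31. Hmgcs1 fell from a median of 81.9 CPM (65.7 to 125.05) to 42.4 (37.1 to 66.6), a log2 fold change of -1.01 ± 0.18 (adjusted p = 0.000238, edgeR). The kinase gene Mvk and the decarboxylase gene Mvd, which act between Hmgcs1 and Idi1, fell by 0.91 and 0.83 on the log2 scale, and Fdps by 1.54, or by 2.02 without replicate 5. Acat2, the cytosolic thiolase that makes acetoacetyl-CoA, fell by 1.03. Pmvk, the kinase between Mvk and Mvd, had a log2 fold change of -0.46 ± 0.24 that did not pass the test (adjusted p = 0.22, edgeR).

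The part of the pathway that is committed to sterols followed. Sqle, the squalene epoxidase (chromosome 15, 59315077 to 59331192, + strand), had a median of 72.5 CPM (52.4 to 110) in unirradiated and 28.7 (9.24 to 73.6) in irradiated primary tumors, a log2 fold change of -1.21 ± 0.29 (adjusted p = 0.00465, edgeR). Cyp51, the lanosterol demethylase (chromosome 5, 4081145 to 4104746, - strand), went from 51.6 CPM (32.7 to 67.3) to 15.9 (11.6 to 38.6), a log2 fold change of -1.45 ± 0.25 (adjusted p = 0.000224, edgeR). The highest irradiated value of both genes was again replicate 5. Msmo1, Nsdhl and Hsd17b7, which clear the methyl groups at carbon 4, fell by 1.24, 0.76 and 0.62 on the log2 scale, Lss, the lanosterol synthase, by 0.88, and Sc5d, a desaturase, by 0.83. Hsd17b7 lost its call in 2 of 11 alternatives and in 5 of 32 fits that left out 1 library. The remaining 5 sterol enzymes did not pass. Squalene synthase, Fdft1, was at -0.55 ± 0.21 (adjusted p = 0.0837, edgeR), the reductases Tm7sf2 and Dhcr7 were at -0.48 and -0.35, and Ebp alone had a positive value, 0.13 ± 0.14 (adjusted p = 0.61, edgeR). Exons of Fdft1 overlap the antisense gene Ctsb and those of Tm7sf2 overlap Vps51 on its own strand, so the counts of both could hold reads of a neighbour.

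The regulators split. Srebf2 (chromosome 15, 82147181 to 82205379, + strand) fell from a median of 178 CPM (143.3 to 229) to 82.4 (61.0 to 188), a log2 fold change of -0.95 ± 0.20 (adjusted p = 0.00136, edgeR), and the irradiated tumors other than replicate 5 reached only 90.1 CPM. Insig1, itself a target of the pathway it restrains, fell by 0.95 on the log2 scale. Stard4, a carrier of cholesterol between membranes (chromosome 18, 33199355 to 33213862, - strand), was the 1 member of the 33 whose primary groups did not overlap: 45.3 to 68.4 CPM without radiation and 25.6 to 43.5 with it, where 0.119% of all genes were lower without overlap. Its log2 fold change was -0.77 ± 0.12 (adjusted p = 4.3e-05, edgeR). Srebf1, Insig2 and Scap had log2 fold changes of -0.15, 0.01 and 0.02, each smaller than its SE, and their 95% intervals lay within 0.45 of 0. Without replicate 5, 11 members did not overlap (7 sterol enzymes, 3 regulators and carriers and 1 fatty acid gene), against 0.492% of all genes.

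Among the fatty acid genes, 4 of the 5 that lengthen or desaturate the chain fell, while the 4 that feed acetyl-CoA or build the chain did not pass the test. Fads2 and Fads1, desaturases of polyunsaturated fatty acids, fell by 1.30 and 0.58 on the log2 scale. Elovl6, an elongase, went from a median of 40.4 CPM (29.7 to 52.1) to 14.0 (8.06 to 32.8), a log2 fold change of -1.20 ± 0.26 (adjusted p = 0.00221, edgeR). Scd2 went from 479 CPM (262 to 641) to 217 (126.6 to 449), a log2 fold change of -0.87 ± 0.26 (adjusted p = 0.0257, edgeR), and its groups overlapped. With the spread from the 2 groups alone Elovl6 kept its call, while Fads1, Fads2 and Scd2 lost theirs, and Scd2 also lost it with the 24 anti-PD-1 libraries alone. Fasn, the fatty acid synthase, was at -0.73 ± 0.28 (adjusted p = 0.0905, edgeR), and passed without replicate 5, as did Fdft1. Acaca, which makes malonyl-CoA, was at -0.49 ± 0.22 and Acly at -0.39 ± 0.16. Acss2, which makes acetyl-CoA from acetate, was at -0.11 ± 0.21, and Scd1 at -0.02 ± 0.36, with an interval from -0.71 to 0.68 that leaves Scd1 undetermined at this spread.

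**Figure D2:**
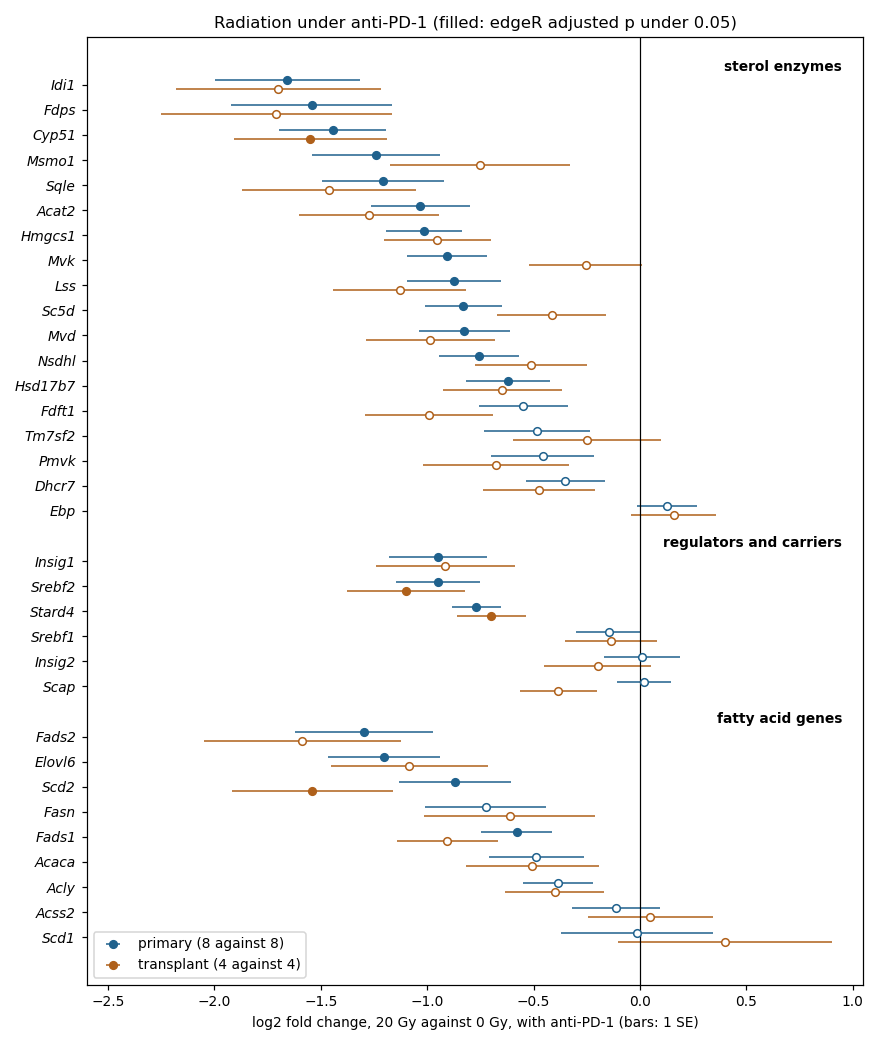
Log2 fold change of each of the 33 members between 20 and 0 Gy in tumors given anti-PD-1, with bars of 1 SE, for primary tumors (8 against 8) and transplants (4 against 4). Filled points passed edgeR's test: 20 in primary tumors and 4 in transplants, all below 0, while most open transplant points of the sterol enzymes sit beside the filled primary ones.

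In transplants given anti-PD-1 the values were of like size and fewer passed. With 4 tumors in each arm, 4 of the 33 members fell and none rose, where 0.0569% of all genes fell and 0.538% rose. The median log2 fold change was -0.70 over the members, -0.85 over the sterol enzymes and -0.61 over the fatty acid genes, against 0.01 over all genes. The irradiated and unirradiated transplants did not overlap for 18 members, all lower, against 3.24% of all genes. The number that passed rested on the fit: 0 members passed, as did 0% of all genes, when only the 2 groups or only the 24 anti-PD-1 libraries gave the spread, 11 passed, against 0.171% of all genes, when primary replicate 5 was left out, and 13 passed by DESeq2, against 0.352% of all genes.

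Cyp51 had 49.0, 29.4, 41.01 and 60.7 CPM in the 4 unirradiated transplants and 16.9, 11.2, 15.4 and 18.04 in the irradiated, a log2 fold change of -1.55 ± 0.36 (adjusted p = 0.036, edgeR). Stard4 had 41.3, 36.5, 49.0 and 49.98 CPM against 21.9, 32.1, 25.9 and 29.1, a log2 fold change of -0.70 ± 0.16 (adjusted p = 0.0377, edgeR). Srebf2 had 140, 179, 145 and 218 CPM against 76.8, 56.8, 71.1 and 113.2, at -1.10 ± 0.28 (adjusted p = 0.0497, edgeR). In each of these 3 genes every irradiated transplant was below every unirradiated one. Scd2, the last to pass, had 218, 399, 277 and 668 CPM against 138.9, 87.7, 97.8 and 213, at -1.54 ± 0.38 (adjusted p = 0.0448, edgeR), with 213 and 218 the nearest values across the groups. These 4 genes passed in primary tumors too. Of 32 fits that left out 1 library, the call was lost in 25 for Srebf2, 15 for Scd2, 6 for Stard4 and 5 for Cyp51, and of 11 other alternatives in 5, 4, 3 and 3.

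Idi1 had 19.9, 10.3, 12.9 and 16.7 CPM in unirradiated and 3.77, 5.02, 5.38 and 4.20 in irradiated transplants, a log2 fold change of -1.70 ± 0.48 that missed the threshold (adjusted p = 0.0733, edgeR). Sqle had 46.2, 41.6, 44.2 and 78.9 CPM against 20.1, 8.62, 17.2 and 30.6, at -1.46 ± 0.41 (adjusted p = 0.0708, edgeR). The groups of both genes were apart. In all, 18 members had a log2 fold change under -0.5 without passing. Ebp was again positive at 0.16 ± 0.20, with 48.5, 32.9, 45.6 and 32.4 CPM unirradiated and 43.1, 47.7, 53.3 and 33.8 irradiated. Scd1 had 1 far value, 798 CPM in irradiated replicate 2 against 117.3 to 171 CPM in the other 3, and without that tumor its log2 fold change went from 0.40 ± 0.50 to -0.68 ± 0.48.

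Whether radiation acted differently in the models was asked by the interaction of dose and model within the anti-PD-1 tumors. None of the 33 members passed in either direction (adjusted p = 0.99 at the lowest, edgeR), none had an unadjusted p under 0.05, and 0 of all 19327 genes passed, with 505 and 415 genes at an unadjusted p under 0.05 in each direction. DESeq2 called 3 genes lower and 0 higher, none of them a member. Without replicate 5 of the irradiated primary tumors 0 members passed and 1 had an unadjusted p under 0.05. The interval of the difference reached 0.39 log2 units to either side for the most precisely measured member, 0.72 for the median member and 1.25 for the least, so differences in response of that size were not detectable. The largest estimate was that of Scd2, -0.67 ± 0.45, towards a larger fall in transplants, and Mvk was at 0.65 ± 0.33, towards a smaller one.

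Few members passed a test between the models, and with groups this small that does not show that their levels were equal. For the sterol enzymes the median log2 difference at 0 Gy ran from -0.38 to -0.25 over 11 alternatives, lower in transplants. Between transplants and primary tumors given anti-PD-1 and 0 Gy, the 1 member that passed was Sc5d, lower in transplants by a log2 fold change of -0.70 ± 0.23 (adjusted p = 0.0488, edgeR), with 22.6 to 33.3 CPM against 24.3 to 55.6, overlapping groups, against 3.96% of all genes lower and 3.39% higher. Over the 11 alternatives 0 to 2 members passed, where 560 to 1263 of all genes were lower. Sc5d lost its call in 5 of 11 alternatives and in 11 of 32 fits that left out 1 library. The fit with the first digit of the mouse number as a covariate was among the 5. That digit was 4 in most primary tumors and 5 in most transplants. At 20 Gy 0 members passed in edgeR's test, where 3.72% of all genes were lower and 3.04% higher. At an unadjusted p under 0.05, 6 were lower and 1 higher, against 13% and 10.9% of all genes, and DESeq2 called 2 lower, against 6.89%. Without replicate 5 of the irradiated primary tumors 0 members passed. The members' median log2 difference was -0.23 at 0 Gy and -0.28 at 20 Gy. These comparisons share their tumors with the radiation comparisons above.

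The isotype tumors, which include the comparison that led to these genes, gave the following values, for description alone. In primary tumors 32 of 33 members were lower at 20 Gy, with a median log2 fold change of -1.12 over the sterol enzymes and -0.92 over the fatty acid genes, and Ebp was the exception at 0.33. The primary isotype groups did not overlap for 4 members, Hmgcs1, Sc5d, Stard4 and Scd2, all lower, where 0.409% of all genes did so. In transplants 28 of 33 were lower, with medians of -0.77 and -0.33. These signs and medians are given without a value over all genes, so they have no baseline here. Idi1 had 13.5, 21.5, 12.2 and 16.2 CPM in unirradiated and 4.48, 3.90, 4.14 and 3.14 in irradiated isotype transplants, the groups far apart. For 20 of the 33 the groups of isotype transplants did not overlap, all lower, where 4.49% of all genes did so. Mouse numbers began with 5 in all unirradiated isotype transplants and with 4 in most irradiated ones. Dose and that digit can therefore not be fully told apart there. Fasn, Acly and Acss2 had positive log2 fold changes of 0.15, 0.04 and 0.31 there, as did Srebf1 at 0.25, and the fatty acid genes of isotype transplants were thus the least lowered of the 4 settings.

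Anti-PD-1 itself was set beside isotype at matched dose and model, also without a test since the isotype tumors are shared with the description above. Members differed by log2 values of -0.48 to 0.12 in unirradiated and -0.19 to 0.91 in irradiated primary tumors, and of -0.24 to 0.38 and -0.70 to 0.75 in transplants. Scd1 gave the highest value in both irradiated settings. Its irradiated primary medians were 118.99 CPM (78.4 to 328) with anti-PD-1 and 89.0 (54.5 to 117.1) with isotype. In irradiated transplants the order of the medians was the reverse, 153.96 CPM with anti-PD-1 and 199 with isotype, and without the tumor at 798 CPM the log2 difference turned from 0.75 to -0.38.

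**Figure D3:**
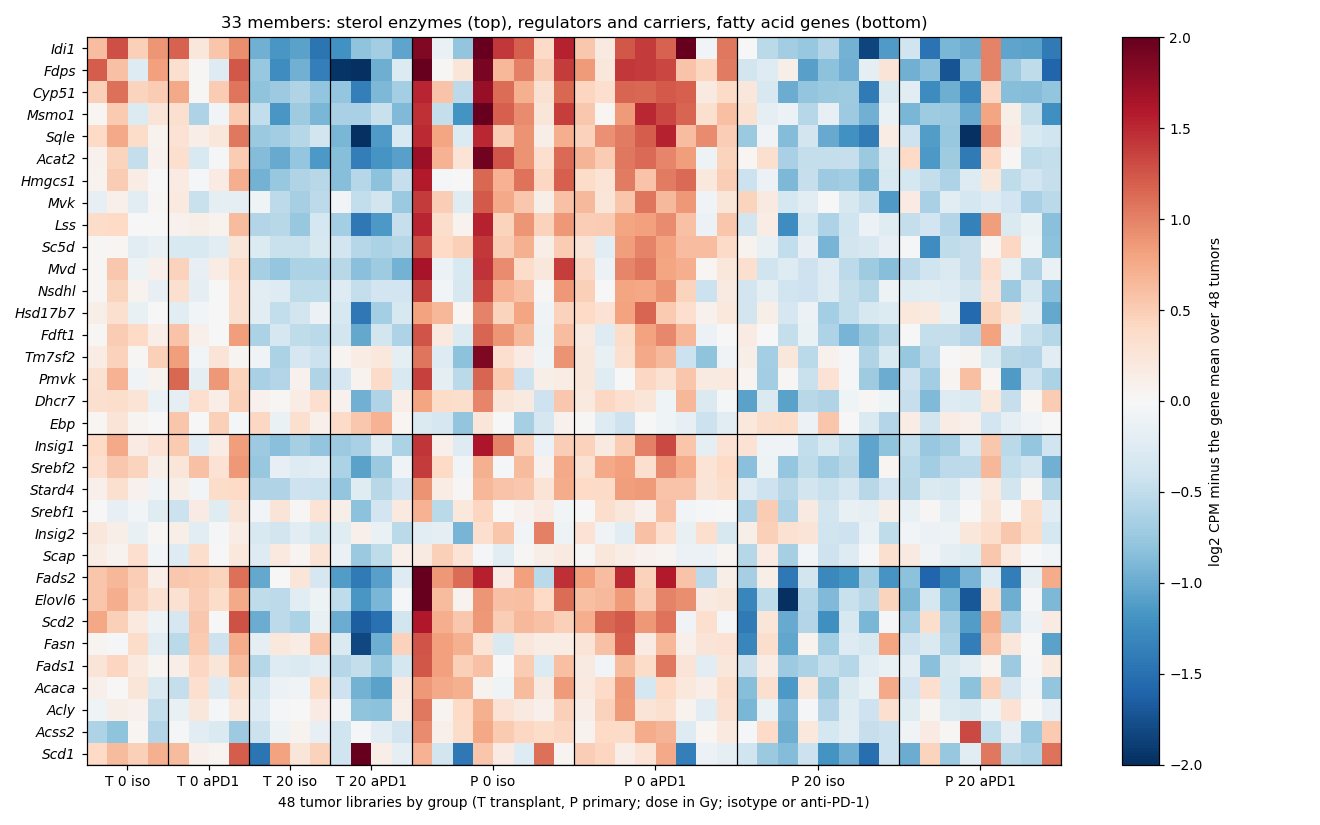
Log2 CPM of each member (rows) in each of 48 tumors (columns), minus that gene's mean over the 48 tumors, from -2 (blue) to 2 (red). The irradiated blocks are mostly blue in the sterol rows in both models and with both antibodies, apart from 1 red column in the irradiated primary anti-PD-1 block, which is replicate 5.

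Sterol genes against fatty acid genes was the remaining comparison, made on each tumor's mean log2 CPM over the 18 and the 9 genes. Sterol means ran from 3.87 to 5.55 in the 24 unirradiated tumors. They ran from 3.25 to 4.03 in the irradiated tumors other than replicate 5, which had 4.51. Fatty acid means ran from 5.91 to 7.31 without and from 4.83 to 6.22 with radiation. Irradiated and unirradiated tumors overlapped in part on both measures. The difference between the means, fatty acid minus sterol, had group medians of 1.72 to 1.81 without radiation and 1.84 to 2.35 with it, and every pair of groups overlapped. After the group means were subtracted, the lists' means correlated across the 48 tumors at r = 0.44, a description over libraries that share depth scaling. Within the sterol list Cyp51 tracked the other enzymes most closely (r = 0.91) and Ebp and Dhcr7 least (both 0.29). Insig1 followed the sterol enzymes at r = 0.88, whereas Scap, at 0.05, did not.

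**Figure D4:**
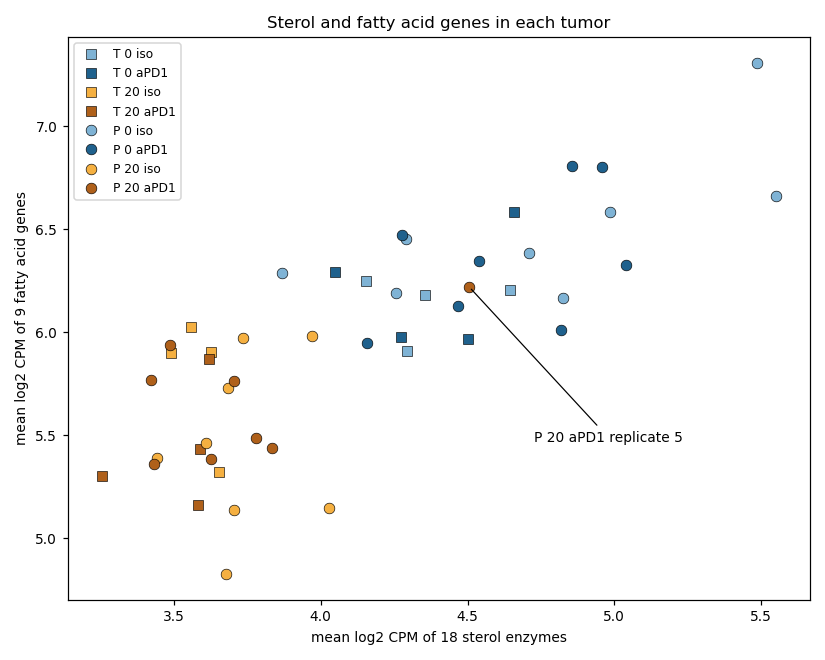
Mean log2 CPM of 9 fatty acid genes against that of 18 sterol enzymes, with 1 point per tumor (squares T transplant, circles P primary; blue 0 Gy, orange and brown 20 Gy). Irradiated tumors lie to the left, from 3.25 to 4.03 on the sterol axis, except the marked replicate 5 at 4.51.

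Of the genes outside the 33 whose variation within groups was most like that of the sterol enzymes, 7 of the 10 closest are named here, at r of 0.67 to 0.75 over 48 tumors: Slc25a1, the citrate carrier of mitochondria, Gm13502, Tmem41b, Idh1, an isocitrate dehydrogenase that makes NADPH, Pgls, Erg28, a scaffold of the sterol enzymes, and Asl.

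Other genes of lipid handling were described by lists. All 9 genes of the LXR and oxysterol list had positive log2 fold changes after radiation in primary tumors given anti-PD-1. By the test 3 of 9 rose and 0 fell, where 7.92% of all genes rose and 3.25% fell. Nr1h3, an LXR receptor, went from a median of 4.85 CPM (4.12 to 8.14) to 19.9 (10.5 to 40.9), a log2 fold change of 2.02 ± 0.30 (adjusted p = 4.3e-05, edgeR), with groups apart. Without replicate 5 the list had 4 that rose, Abca1 and Ch25h among them and Nr1h2 no longer (adjusted p = 0.0521, edgeR). The share of all genes that rose in that fit is not given, so the 4 have no baseline here. Abcg1, a cholesterol exporter, went from 46.9 (27.3 to 68.1) to 125.6 (36.6 to 252), at 1.58 ± 0.28 (adjusted p = 0.000272, edgeR), and Nr1h2 rose by 0.26. Abca1 and Ch25h, a further exporter and the enzyme that makes an oxysterol, were at 0.72 ± 0.25 and 1.22 ± 0.43 and did not pass (adjusted p = 0.0559 and 0.0575, edgeR). In transplants 2 of 9 rose, Abcg1 at 1.87 ± 0.40 and Nr1h3 at 1.73 ± 0.42 (adjusted p = 0.0234 and 0.0438, edgeR), where 0.538% of all genes rose.

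Of 8 genes of sterol transport and storage, Stard3 and Npc2 rose in primary tumors, by 0.54 and 0.67 on the log2 scale. Both handle cholesterol in lysosomes and late endosomes. In transplants Stard3 rose by 0.70 (adjusted p = 0.0083, edgeR). By the same test 7.92% of all genes rose in primary tumors and 0.538% in transplants. Of 9 further genes of Srebf processing or targeting, Tmem97 fell in primary tumors by 0.59 (adjusted p = 0.0388, edgeR), where 3.25% of all genes fell. In transplants 0 of the 9 passed by edgeR, with 2 lower and 0 higher at an unadjusted p under 0.05, against 5.19% and 7.95% of all genes. Of 10 genes of fatty acid oxidation 0 passed in either model by edgeR, with 4 higher in primary tumors and none in transplants at an unadjusted p under 0.05, against 16.6% and 7.95% of all genes. The models differed in Nr1h3, higher in unirradiated transplants by 1.87 ± 0.34, and in Cyp7b1, an oxysterol hydroxylase, lower by 2.95 on the log2 scale (adjusted p = 0.000431 and 0.00348, edgeR).

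Several marker lists moved with radiation beside these genes. In primary tumors given anti-PD-1, 8 of 12 cell cycle genes fell (mean log2 CPM 6.14 to 7.36 without and 4.70 to 6.62 with radiation), all 10 interferon response genes rose (4.25 to 6.52 and 5.45 to 8.41) and 3 of 8 macrophage markers rose (6.84 to 7.76 and 5.94 to 8.65). By the same test 3.25% of all genes fell and 7.92% rose in these tumors. Muscle markers (2.62 to 8.72 and 0.27 to 12.55) and adipocyte markers (-3.58 to -0.20 and -3.63 to 2.55) ranged widely. In transplants given anti-PD-1, cell cycle means were 6.59 to 6.98 and 5.12 to 6.43, interferon means 5.59 to 6.36 and 7.03 to 8.71, and macrophage means 6.52 to 7.78 and 7.84 to 8.72. Without replicate 5 of the irradiated primary tumors 9 cell cycle genes fell, against 4.56% of all genes. In that fit 10 interferon and 5 macrophage genes rose, with no share of all genes that rose given here. Of 7 mesenchyme markers, Vim alone fell in primary tumors, by 0.77 on the log2 scale. In transplants 0 of the 7 passed, with 1 lower at an unadjusted p under 0.05, against 5.19% of all genes. Tumor medians of the mesenchyme mean were 10.80 log2 CPM without and 9.87 with radiation in primary tumors, and 10.00 and 9.14 in transplants, over ranges that overlapped (9.73 to 11.27 and 9.76 to 11.47, and 9.33 to 10.27 and 8.71 to 10.12). The part of cell cycle, interferon, macrophage and mesenchyme genes in the result was not tested. With the muscle list as a covariate 20 members fell in primary tumors, beside 870 of all 19327 genes. With the adipocyte list 20 members fell, beside 467 of all genes, and neither fit tested a cause.

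In line 402230 the members were compared with the 24 unirradiated tumors by value alone. In the library labelled as the parental tumor, 10 of 33 members exceeded every unirradiated tumor, as did 18.4% of all genes that passed the filter, and none was below all of them. They included Idi1 at 43.6 CPM, where the tumors spanned 5.17 to 37.2, Sqle at 130.7 (32.2 to 112.98), Fasn at 474 (113.1 to 376), Acaca at 134.5 (30.6 to 77.4) and Elovl6 at 122.2 (28.2 to 109.6). The 10 were 4 sterol enzymes, 1 carrier, Stard4 at 85.3 CPM (35.6 to 69.7), and 5 of the 9 fatty acid genes. In that library the 12 cell cycle genes summed to 4437 CPM against 854 to 2179 in the unirradiated tumors. In the library labelled as the cell line no member exceeded the tumors, where 8.72% of all genes did. In it 5 members lay below all of the tumors, among them Srebf2 at 97.3 CPM (110.9 to 303) and Scap at 54.0 (68.1 to 114.1). The share of all genes below all tumors was not counted, so whether the 5 are particular to these members cannot be told. Vim at 1610 CPM (2366 to 5634) and Col1a1 at 1488 (1584 to 11879), which are not members, were below all tumors too. These are single libraries of 48457411 and 41226531 reads, with no replicate error.

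**Figure D5:**
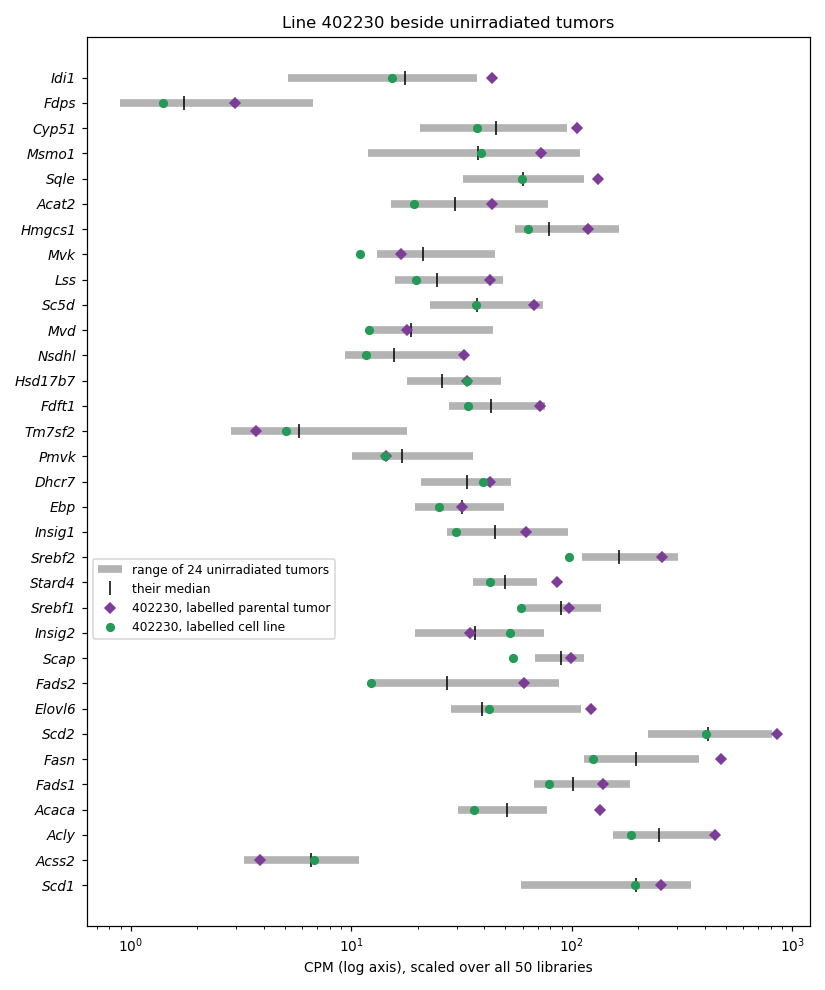
CPM (log axis, scaled over all 50 libraries) of the 33 members in the 402230 libraries, by their labels, over the range (grey bar) and median (tick) of 24 unirradiated tumors. The library labelled as the parental tumor lies to the right of the grey bar for 10 members, and the library labelled as the cell line lies to the right for none.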

How the data were processed

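Bulk mRNA was sequenced from 48 tumors and 2 libraries of line 402230 after oligo-dT selection with a stranded kit. Per the labels, adapters were removed with Trimmomatic 0.36, STAR placed the reads on mm10 with GENCODE M17, and HTSeq gave the deposited raw counts per gene. The STAR version differs between sources, and whether counting used strand is not given in the sources used here. Antisense overlaps, which Acss2, Cyp51, Elovl6, Fdft1, Hmgcs1, Idi1, Lss, Scap and Srebf1 have, could therefore add reads.

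From the deposited counts, edgeR 4.0.16 (R 4.3.3) was fitted to the 48 tumors with 1 term per group, its default filter, TMM scaling and robust quasi-likelihood tests, and p-values were adjusted over 19327 genes by Benjamini-Hochberg at 0.05. SEs are the log2 fold change over the root of F, and 95% intervals are 1.96 SEs. Log2 CPM used a prior count of 2. The fit was tested on simulated data. Symbols, coordinates and exon lengths are from GENCODE M21 on the same assembly, and 37408 of 37469 identifiers had a symbol. Members and lists were chosen with earlier results of these data known. Named genes outside the 33 are lists of lipid handling and the 10 most correlated genes, of which some are not reported here. Replicate numbers follow sample order and pair nothing. Over 136 pairs of libraries within groups, chi-square divided by its degrees of freedom was at least 61.0, so none was a duplicate. Alternatives were DESeq2 1.42.0, limma 3.58.1, other scalings, filters, covariates and samples.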

Additional observations from a re-analysis of the deposited data

Results flagged for a closer look

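In 288 sets of values (33 members and 3 list means in 8 groups), 21 had a highest or lowest tumor whose gap to its neighbour was large for the group's range. Chance flags about 1 set in 20, and members move together, so the flags are not independent.

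Of these, 8 fell on replicate 5 of the irradiated primary tumors given anti-PD-1, each time as the highest of 8: the sterol mean at 4.51 log2 CPM, the mean of regulators and carriers at 6.28, Hmgcs1 at 6.06, Idi1 at 4.13, Fdps at 1.12, Fdft1 at 5.83, Insig1 at 5.54 and Srebf2 at 7.55. In 20 of the 33 members this tumor was the highest of its group. It also had the lowest Cdkn1a of the group, though above every unirradiated primary tumor given anti-PD-1. The part of the low Cdkn1a in these values was not tested.

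A further 4 fell on replicate 4 of the unirradiated transplants given anti-PD-1, as the highest of 4: the mean of regulators and carriers at 6.32, Sqle at 6.30, Lss at 4.72 and Fads2 at 5.27. Replicate 1 of the unirradiated primary isotype tumors was highest for the fatty acid mean at 7.31 and for Scd2 at 9.70. The others were single values. Replicate 2 of the irradiated transplants given anti-PD-1 was lowest for the sterol mean at 3.25. In irradiated isotype transplants Pmvk was highest in replicate 3 at 3.93 and Srebf2 lowest in replicate 1 at 6.14. In unirradiated isotype transplants Cyp51 was highest in replicate 2 at 5.95 and Dhcr7 lowest in replicate 4 at 4.63. In unirradiated primary tumors given anti-PD-1 Lss was lowest in replicate 7 at 3.98 and Scd1 lowest in replicate 6 at 5.91.

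Outside the groups, 10 of 33 members were above all 24 unirradiated tumors in the library of line 402230 labelled as the parental tumor, as were 18.4% of all genes.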

How the results depend on the processing

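The count of members that fell with radiation in primary tumors given anti-PD-1 (20) stayed at 16 to 21 over 11 alternatives. It was 18 to 22 over 32 fits that left out 1 library, and none rose. Of all genes 628 fell in the main fit, and 186 (own groups) to 870 (muscle covariate) over the 11 alternatives. In transplants the count (4) is given next with the number of all genes that fell in brackets (11 in the main fit). It was 2 with library totals (7), 0 without a filter (2), 7 with at least 1 CPM in 4 tumors (19) and 13 with DESeq2 (68). With limma voom it was 7 (28), in its own groups 0 (0) and in the 24 anti-PD-1 libraries 0 (0). With the muscle covariate it was 9 (36), with the adipocyte covariate 9 (67), and leaving out a library 0 to 11. Genes tested numbered 19327, but 36854 without a filter and 15791 with the 1 CPM filter. The fatty acid median of transplants (-0.61) ran from -0.97 to -0.38 leaving out a library. For transplants against primary tumors at 0 Gy the count (1) is given with the number of all genes lower in brackets (765). It was 2 with size factors (858), library totals (751), the 1 CPM filter (798), DESeq2 (1263) or its own groups (861). Without a filter (570) or with the mouse number covariate (655) it was 0, and leaving out a library 0 to 2. That covariate was the first digit of the mouse number, 4 in most primary tumors and 5 in most transplants. At 20 Gy (0 lower, 0 higher) DESeq2 gave 2 lower, beside 1332 of all genes, and library totals 1 higher, beside 670. Leaving out a library gave 0 to 3 lower and 0 to 1 higher. The cause was not tested. The 16 fits that left out a primary anti-PD-1 library were chosen after seeing the data. No value named as a call reversed. Of 1091 refits of single called members and log2 levels, 992 kept their call or level and 99 lost it, in the same direction. Every tumor library held at least 31810461 reads, and with 4 transplants a group the spread between tumors set the width of the intervals. No paired analysis was possible because replicate numbers only follow sample order.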
